A study of Mus musculus with 11 samples.

Results

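The ERBB family of receptor tyrosine kinases and the ligands of the EGF family were taken from the deposited gene tables by gene name. They comprise the receptors *Egfr*, *Erbb2*, *Erbb3* and *Erbb4* and the ligands *Areg*, *Ereg*, *Hbegf*, *Tgfa*, *Btc* and *Nrg1*, which are 10 of 26283 genes. Of these 10, 9 passed the filter on low counts and were among the 19232 genes tested, and *Ereg* did not. ERBB receptors pair with each other after a ligand binds and phosphorylate their own tails, from which the RAS to ERK and the PI3K to AKT pathways start. ERBB2 has no known ligand and ERBB3 is a weak kinase, so both act mainly through their partners, and the ligands are made as membrane-anchored precursors that ADAM metalloproteases release. In the mammary gland amphiregulin acting on EGFR is needed for the ducts to grow in puberty, and neuregulin acting on ERBB3 and ERBB4 contributes to the growth of alveoli and to milk production.

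Bulk RNA was sequenced from 11 mammary tumors of C57BL/6 mice at an age of 18 weeks. The 6 PyMT *Pcbp1*–/– tumors were from mice with MMTV-PyMT, MMTV-Cre and *Pcbp1*(fl/fl), and the 5 PyMT *Pcbp1*+/+ tumors came from mice with MMTV-PyMT, MMTV-Cre and *Pcbp1*(wt/wt). Both groups therefore carried Cre and the polyomavirus middle T oncogene, and they differed in whether Cre could delete *Pcbp1*, the gene of an RNA-binding protein. The comparison asked which transcripts differed in tumors without it. The MMTV promoter is active mainly in mammary epithelium, whereas the RNA came from whole tumors that also hold stroma, vessels and immune cells. In such bulk RNA, fewer cells of a type and less RNA per cell cannot be told apart. The labels do not state that the tumors came from separate animals, so p-values measure the spread between these tumors.

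The libraries were poly(A)-enriched and stranded, and the labels give the same batch for all 11. Estimated counts summed to between 11239931 and 14092192 in PyMT *Pcbp1*–/– tumors (median 13135786) and to between 10543189 and 11411776 in PyMT *Pcbp1*+/+ tumors (median 10975700). The totals were higher in PyMT *Pcbp1*–/– tumors (two-sided exact permutation test of the means with the smaller tail doubled, p = 0.00866), and the part of depth in the results for single genes was not tested. Levels are given as the deposited CPM, counts scaled to a total of 1000000 per tumor, and 3 counts corresponded to between 0.213 and 0.285 CPM. Structural RNAs, such as ribosomal RNA, made up 13.5% to 24.3% of that total in PyMT *Pcbp1*–/– tumors. In PyMT *Pcbp1*+/+ tumors they made up 13.4% to 23.1%. Protein-coding genes made up 53.0% to 58.0% and 51.7% to 61.4% in the same order. The most abundant gene of each tumor held 9.04% to 17.4%. The part of this composition in the levels was not tested. Differences are log2 fold changes of PyMT *Pcbp1*–/– over PyMT *Pcbp1*+/+ tumors from edgeR's quasi-likelihood test, with p-values adjusted by the Benjamini-Hochberg method over the 19232 genes. An adjusted p under 0.05 counted as past the threshold.

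The targeted gene separated the groups as labelled. *Pcbp1* (ENSMUSG00000051695.6, GRCm38 chr6:86524492-86526321, minus strand) had CPM values of 19.5, 19.2, 28.1, 22.3, 15.4 and 33.6 across PyMT *Pcbp1*–/– replicates 1 to 6. PyMT *Pcbp1*+/+ replicates 1 to 5 had 268, 271, 225, 219.5 and 259 CPM. Every PyMT *Pcbp1*–/– tumor lay far below every PyMT *Pcbp1*+/+ tumor, and residual *Pcbp1* RNA was measured in all 6. The log2 fold change was -3.43 (SE 0.19, 95% CI -3.84 to -3.02, edgeR adjusted p = 4.72e-06). The antisense gene *RP23-20K24.5* shares 75 bases with *Pcbp1* and had a log2 fold change of -3.05 (SE 0.41, edgeR adjusted p = 0.00350), and whether its reads were told apart from those of *Pcbp1* is uncertain.

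Among the ERBB receptors and their ligands, no gene passed the test in either direction. Of the 9 members tested with edgeR, 0 were lower, beside 319 of all 19232 genes (1.66%), and 0 were higher, beside 117 (0.608%). In either direction 436 genes (2.27%) passed. DESeq2 also called 0 of the 9, beside 700 lower (3.4%) and 476 higher (2.31%) of 20614 genes to which it gave an adjusted p. Limma-voom with sample quality weights called 0 of the 9 as well, beside 1190 lower (6.19%) and 968 higher (5.03%) of 19232. The same count was 0 with limma-trend on log2(CPM + 1), beside 228 lower (1.19%) and 92 higher (0.478%). At an unadjusted p under 0.05 there were 0 members by edgeR, beside 3601 of all genes (18.7%), 0 by DESeq2, beside 3831 (18.6%), and 0 by limma-trend, beside 3344 (17.4%). There were 3 by limma-voom, *Egfr*, *Erbb4* and *Btc*, beside 5822 of all genes (30.3%). The groups overlapped in CPM for all 9, beside 633 of all genes tested (3.29%) that showed no overlap. With shares this small among all genes, 0 calls and 0 genes without overlap among 9 do not set the members apart. Log2 fold changes were negative for 6 members and positive for 3, with a median of -0.21 beside -0.00012 over all genes tested. A missed threshold does not show that levels were equal, and the 95% intervals below give the differences that remain possible for each gene.

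Of the receptors, *Egfr* had the lowest p with edgeR, and *Erbb4* with limma-voom. *Egfr* (ENSMUSG00000020122.16, chr11:16752203-16918158, plus strand), the receptor for EGF, TGFα and amphiregulin, had CPM values of 132, 126, 123, 188 and 118 in PyMT *Pcbp1*+/+ replicates 1 to 5. Its PyMT *Pcbp1*–/– values ran from 124 to 212 CPM with a median of 172. In 5 of 6 PyMT *Pcbp1*–/– tumors *Egfr* lay above the PyMT *Pcbp1*+/+ median, and the groups overlapped through PyMT *Pcbp1*+/+ replicate 4, as high as most of the other group, and through the low PyMT *Pcbp1*–/– replicate 1. In *Egfr* the log2 fold change was 0.30 (SE 0.15, 95% CI -0.020 to 0.62, edgeR adjusted p = 0.298), an interval from 0.986-fold to 1.54-fold. It was 0.41 without PyMT *Pcbp1*+/+ replicate 4 (edgeR adjusted p = 0.188), and limma-voom gave an adjusted p of 0.145, within 0.145 to 0.473 over 20 alternatives. The antisense gene *Egfros* lies within *Egfr* (chr11:16815431-16830702, minus strand) and measured 27.5 ± 4.93 CPM in PyMT *Pcbp1*–/– tumors (SD, n = 6) against 26.1 ± 4.66 CPM in PyMT *Pcbp1*+/+ tumors (SD, n = 5). Whether strand was used in counting is not stated, so reads of *Egfr* and *Egfros* may not have been told apart.

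*Erbb2* (ENSMUSG00000062312.5, chr11:98412470-98437716, plus strand), the partner receptor without a ligand, had CPM values of 41.8, 55.2, 39.7, 55.4 and 43.6 in PyMT *Pcbp1*+/+ replicates 1 to 5. In PyMT *Pcbp1*–/– tumors it ran from 27.7 to 52.2 CPM with a median of 40.7. The ranges overlapped, and 3 of 6 PyMT *Pcbp1*–/– tumors fell on each side of the PyMT *Pcbp1*+/+ median. For *Erbb2* the log2 fold change was -0.21 (SE 0.16, 95% CI -0.55 to 0.13, edgeR adjusted p = 0.498). With a tumor left out the value ran from -0.30 without PyMT *Pcbp1*–/– replicate 5 to -0.12 without PyMT *Pcbp1*–/– replicate 1. *Mien1*, on the opposite strand, shares 9 bases with the end of *Erbb2*.

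*Erbb3* (ENSMUSG00000018166.8, chr10:128567523-128589652, minus strand), a neuregulin receptor that recruits PI3K, had CPM values of 126, 70.5, 99.2, 143 and 105 in PyMT *Pcbp1*+/+ replicates 1 to 5. The PyMT *Pcbp1*–/– values were 91.7 to 113 CPM with a median of 106, so that their whole range lay inside that of the other group. The log2 fold change of *Erbb3* was -0.057 (SE 0.14, 95% CI -0.36 to 0.25, edgeR adjusted p = 0.861). Its sign turned when PyMT *Pcbp1*+/+ replicate 4 was left out, to 0.038, and it was -0.18 without PyMT *Pcbp1*+/+ replicate 2 and -0.13 with limma-voom.

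*Erbb4* (ENSMUSG00000062209.15, chr1:68032186-69108059, minus strand), a neuregulin receptor that activates STAT5 in the lactating gland, had CPM values of 13.3, 4.65, 21.1, 25.5 and 17.1 in PyMT *Pcbp1*+/+ replicates 1 to 5. PyMT *Pcbp1*–/– tumors ran from 5.60 to 31.5 CPM with a median of 9.82. Only PyMT *Pcbp1*–/– replicate 2, which was the highest of all 11, lay above the PyMT *Pcbp1*+/+ median, and PyMT *Pcbp1*+/+ replicate 2 was the lowest of all. *Erbb4* had a log2 fold change of -0.31 (SE 0.47, 95% CI -1.32 to 0.70, edgeR adjusted p = 0.758). With a tumor left out it ran from -0.75 without PyMT *Pcbp1*–/– replicate 2 (edgeR adjusted p = 0.312) to -0.13 without PyMT *Pcbp1*+/+ replicate 4 (edgeR adjusted p = 0.934), and limma-voom, which gives less weight to tumors that vary more, gave -0.998 (adjusted p = 0.0943, within 0.0943 to 0.934 over 20 alternatives). The *Erbb4* gene spans 7 small annotated genes on its own strand, the most abundant of them at a mean of 2.00 CPM.

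Among the ligands, *Tgfa* (ENSMUSG00000029999.14, chr6:86195223-86275719, plus strand), a ligand of EGFR, had CPM values of 19.5, 19.4, 14.3, 19.5 and 30.7 in PyMT *Pcbp1*+/+ replicates 1 to 5. The PyMT *Pcbp1*–/– values ran from 14.3 to 46.4 CPM with a median of 18.4. PyMT *Pcbp1*–/– replicates 1 (46.4 CPM) and 5 (40.5 CPM) stood above all other tumors, and the remaining 4 lay below the PyMT *Pcbp1*+/+ median. For *Tgfa* the log2 fold change was 0.29 (SE 0.34, 95% CI -0.44 to 1.03, edgeR adjusted p = 0.684). It was 0.045 without PyMT *Pcbp1*–/– replicate 1, 0.10 without PyMT *Pcbp1*–/– replicate 5 and 0.51 without PyMT *Pcbp1*+/+ replicate 5, and limma-voom gave 0.13 and limma-trend 0.17. A small annotated gene of unknown type, *RP23-304D1.6*, lies within *Tgfa* on the opposite strand at a mean of 1.03 CPM.

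*Hbegf* (ENSMUSG00000024486.5, chr18:36504929-36515805, minus strand), a heparin-binding ligand of EGFR and ERBB4, had CPM values of 5.30, 4.65, 2.10, 3.74 and 4.20 in PyMT *Pcbp1*+/+ replicates 1 to 5. PyMT *Pcbp1*–/– tumors ran from 1.78 to 9.44 CPM with a median of 3.54. The highest tumors were again PyMT *Pcbp1*–/– replicates 1 (8.37 CPM) and 5 (9.44 CPM), and the others of that group lay within or just below the PyMT *Pcbp1*+/+ range. *Hbegf* had a log2 fold change of 0.27 (SE 0.43, 95% CI -0.65 to 1.20, edgeR adjusted p = 0.766). Without PyMT *Pcbp1*–/– replicate 5 it was -0.050 and without PyMT *Pcbp1*–/– replicate 1 it was 0.057, while limma-voom gave -0.057 and limma-trend 0.064.

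*Areg* (ENSMUSG00000029378.5, chr5:91139599-91148432, plus strand), which encodes amphiregulin, had CPM values of 7.67, 0.854, 0.964, 0.820 and 0.268 in PyMT *Pcbp1*+/+ replicates 1 to 5. In PyMT *Pcbp1*–/– tumors *Areg* ran from 0.142 to 2.40 CPM with a median of 1.32. PyMT *Pcbp1*+/+ replicate 1 was the highest of all 11, yet 5 of 6 PyMT *Pcbp1*–/– tumors lay above the PyMT *Pcbp1*+/+ median. The log2 fold change of -0.58 (SE 0.74, 95% CI -2.19 to 1.02, edgeR adjusted p = 0.712) therefore rested on that tumor. It was 0.87 without PyMT *Pcbp1*+/+ replicate 1 (edgeR adjusted p = 0.477), with limma-voom 0.14 and with limma-trend -0.072, and the adjusted p ran from 0.477 to 0.990 over 20 alternatives.

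*Ereg* (ENSMUSG00000029377.5, chr5:91074622-91093646, plus strand), which encodes epiregulin, had CPM values of 1.37, 0.285, 0.175, 0.273 and 0 in PyMT *Pcbp1*+/+ replicates 1 to 5. Its PyMT *Pcbp1*–/– values ran from 0 to 1.54 CPM with a median of 0.226. In 8 of 11 tumors *Ereg* had 3 counts or fewer, and the exceptions were PyMT *Pcbp1*–/– replicates 1 (18 counts) and 5 (6 counts) and PyMT *Pcbp1*+/+ replicate 1 (15 counts). With so few counts *Ereg* was not tested in the comparison above. With no filter on low counts edgeR gave a log2 fold change of 0.064 (adjusted p = 0.982), and DESeq2 gave no adjusted p for it.

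*Btc* (ENSMUSG00000082361.6, chr5:91357261-91402994, minus strand), which encodes betacellulin, had CPM values of 10.3, 7.11, 7.53, 8.75 and 6.88 in PyMT *Pcbp1*+/+ replicates 1 to 5. PyMT *Pcbp1*–/– tumors ran from 5.21 to 8.85 CPM with a median of 6.76. PyMT *Pcbp1*–/– replicates 2 and 6 lay above the PyMT *Pcbp1*+/+ median and the other 4 below it. For *Btc* the log2 fold change was -0.23 (SE 0.15, 95% CI -0.56 to 0.11, edgeR adjusted p = 0.458), and limma-voom gave an adjusted p of 0.147, within 0.147 to 0.676 over 20 alternatives. *Ereg*, *Areg* and *Btc* share a stretch of chromosome 5 with the ligand gene *Epgn*, from 91027464 to 91402994, which is 376 kb. Per kilobase of annotated exons, *Btc* and *Areg* averaged 1.64 and 1.40 CPM over the 11 tumors, above *Epgn* at 0.209 and *Ereg* at 0.0959.

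*Nrg1* (ENSMUSG00000062991.7, chr8:31814551-32884029, minus strand), the main ligand of ERBB3 and ERBB4, had CPM values of 17.0, 5.84, 23.3, 32.3 and 4.05 in PyMT *Pcbp1*+/+ replicates 1 to 5. Among PyMT *Pcbp1*–/– tumors the range was 8.23 to 25.0 CPM with a median of 11.9. All PyMT *Pcbp1*–/– values lay inside the wide PyMT *Pcbp1*+/+ range, whose lowest tumors were replicates 2 and 5. *Nrg1* had a log2 fold change of -0.29 (SE 0.46, 95% CI -1.29 to 0.70, edgeR adjusted p = 0.768). Without PyMT *Pcbp1*+/+ replicate 4 it was 0.061, and limma-voom gave -0.70 (adjusted p = 0.266) and limma-trend -0.027 (adjusted p = 0.984), the ends of the range of adjusted p over 20 alternatives. The counts of *Nrg1* were more than 0.01 from a whole number in all 11 tumors, which held for none of the other 8 members tested, so how its reads were divided is uncertain, and the noncoding gene *Gm26578* lies on the opposite strand within it at a mean of 2.01 CPM.

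**Figure D1:**
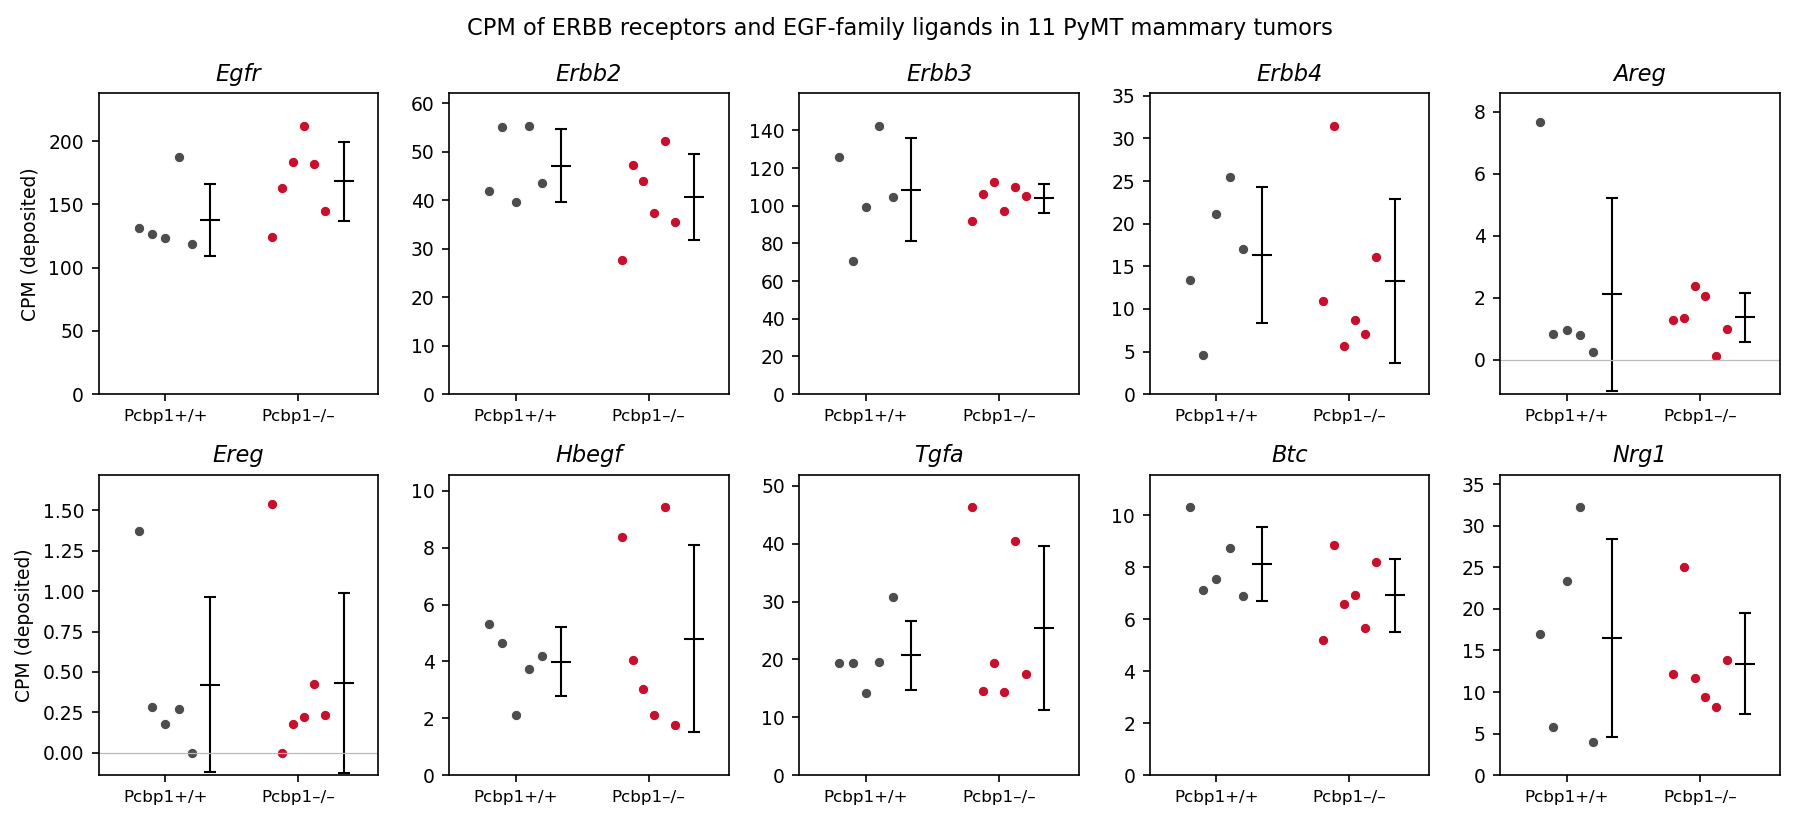
CPM (vertical axis, deposited values) of the 10 genes in each tumor, with PyMT *Pcbp1*+/+ in grey (n = 5) and PyMT *Pcbp1*–/– in red (n = 6), and bars for the mean ± SD, which reach below 0 for *Areg* and *Ereg*. The groups overlap in every panel, and single tumors stand apart for *Areg*, *Ereg*, *Nrg1* and *Egfr*.

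Levels of different genes were compared as CPM per kilobase of annotated exons, averaged over the 11 tumors. On that scale *Erbb3* had the highest level at 16.8 ± 2.92 CPM per kilobase (SD, n = 11), followed by *Egfr* at 13.4 ± 2.83 and *Erbb2* at 8.04 ± 1.59. Of the 6 member ligands *Tgfa* had the highest mean at 3.40 ± 1.61 CPM per kilobase, while *Nrg2*, a ligand outside the 10, had 4.21. Then came *Btc* at 1.64 ± 0.326, *Areg* at 1.40 ± 1.71, *Erbb4* at 1.15 ± 0.675, *Nrg1* at 0.887 ± 0.527, *Hbegf* at 0.867 ± 0.487 and *Ereg* at 0.0959 ± 0.118 CPM per kilobase. *Areg* reached 6.28 CPM per kilobase in PyMT *Pcbp1*+/+ replicate 1, so its mean and its place above *Erbb4* rested on that tumor. On average the tumors thus held more transcript of each of these receptors but *Erbb4* than of any of these 6 ligands. Ranked among 13624 protein-coding genes tested, the level per kilobase stood at percentile 92.5 for *Erbb3*, 89.9 for *Egfr*, 80.2 for *Erbb2* and 54.9 for *Tgfa*, and *Erbb4* stood at percentile 24.1.

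Most neighbours in this order overlapped between tumors. The ranges of CPM per kilobase were separate only for *Egfr* over *Erbb2* and for *Hbegf* over *Ereg*. Within tumors, *Erbb3* was above *Egfr* in 10 of 11, *Erbb2* above *Tgfa* in 10 of 11, *Tgfa* above *Btc* in 11 of 11 and *Btc* above *Areg* in 8 of 11. *Areg* was above *Erbb4* in 5 of 11 and *Nrg1* above *Hbegf* in 6 of 11, so these pairs had no stable order, whereas *Erbb4* was above *Nrg1* in 10 of 11. *Tgfa* had the highest level per kilobase of the 6 ligands in 10 tumors, and *Areg* in PyMT *Pcbp1*+/+ replicate 1.

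The receptors can also be given as shares of their summed level per kilobase, a description without a test. The share of *Egfr* was 36.7% ± 4.08 (SD, n = 6) in PyMT *Pcbp1*–/– and 30.4% ± 2.24 (SD, n = 5) in PyMT *Pcbp1*+/+ tumors, with an overlap at PyMT *Pcbp1*+/+ replicate 2 (33.49%) and PyMT *Pcbp1*–/– replicate 2 (33.48%). *Erbb3* took 41.9% ± 3.44 and 43.7% ± 5.75, and *Erbb2* took 18.8% ± 2.35 and 22.7% ± 4.88, in the same order of groups. *Erbb4* held only 2.66% ± 1.81 and 3.20% ± 1.38. *Erbb3* was the leading receptor in 10 tumors and *Egfr* in PyMT *Pcbp1*–/– replicate 4. Summed over the 4 receptors, CPM ran from 254 to 356 (median 347) in PyMT *Pcbp1*–/– and from 257 to 411 (median 284) in PyMT *Pcbp1*+/+ tumors. The 6 ligands summed to between 35.02 and 75.0 CPM (median 48.5) and to between 38.2 and 65.4 CPM (median 48.4).

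**Figure D2:**
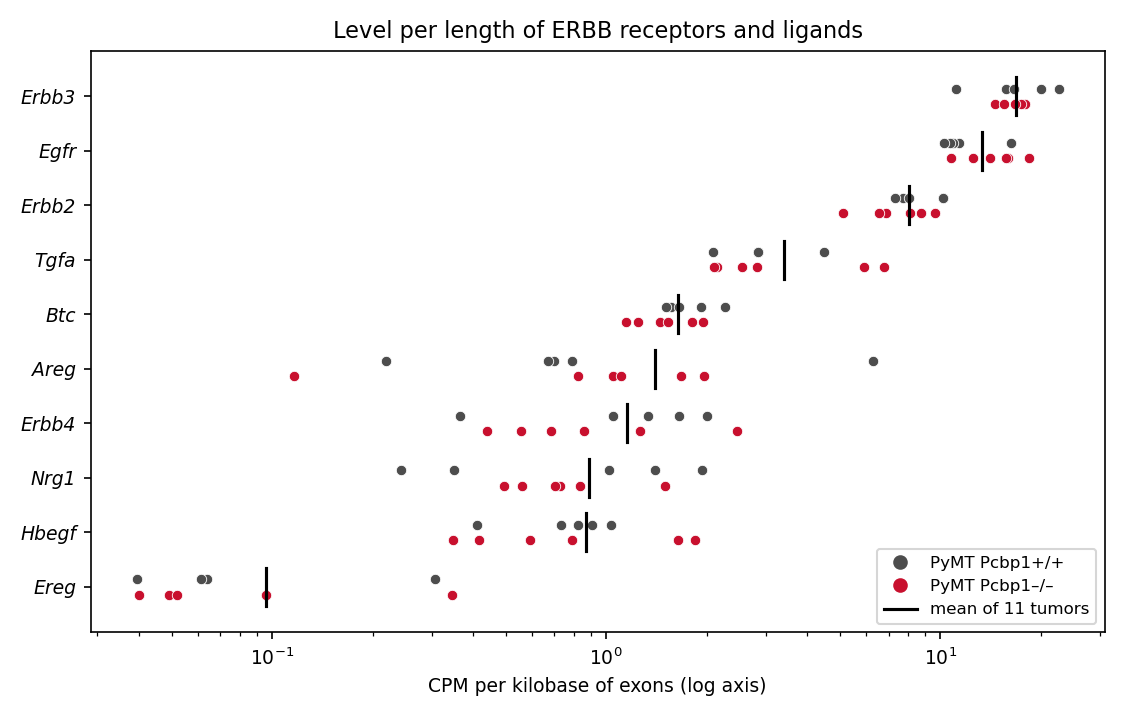
CPM per kilobase of exons (log axis) of the 10 genes in each tumor, with PyMT *Pcbp1*+/+ in grey (n = 5), PyMT *Pcbp1*–/– in red (n = 6) and a black line for the mean of the 11 tumors. The tumors with no count of *Ereg* are not drawn, and the means of *Erbb3*, *Egfr* and *Erbb2* lie above those of the ligands.

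The members differed in how far they varied between tumors. The highest CPM over the lowest among the 11 tumors was 54.1 for *Areg*, 7.97 for *Nrg1*, 6.78 for *Erbb4*, 5.31 for *Hbegf* and 3.25 for *Tgfa*. It was 1.79 for *Egfr*, 1.98 for *Btc*, 2.00 for *Erbb2* and 2.02 for *Erbb3*, so that *Btc* varied as little as the abundant receptors. For *Areg* the lowest tumor was PyMT *Pcbp1*–/– replicate 5 (0.142 CPM), whose 2 counts lie under the floor of 3 counts. The highest was PyMT *Pcbp1*+/+ replicate 1 (7.67 CPM, next 2.40), so the ratio of *Areg* rested on those tumors. The biological coefficient of variation within groups, estimated by edgeR, was 82.5% for *Areg*, 52.9% for *Erbb4*, 52.4% for *Nrg1*, 47.7% for *Hbegf* and 38.7% for *Tgfa*. For *Areg*, *Erbb4* and *Nrg1* it stood at percentiles 99.3, 95.8 and 95.6 of all genes tested. The same quantity was 18.5% for *Egfr*, 19.2% for *Erbb2*, 17.7% for *Erbb3* and 17.7% for *Btc*.

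Across the 11 tumors 36 pairs of members were compared by log2 CPM, and 0 passed the Benjamini-Hochberg adjustment over the 36 by Pearson's r or Spearman's rho, while 3 and 4 pairs had an unadjusted permutation p under 0.05. *Hbegf* and *Tgfa* had the highest r at 0.80 (permutation p = 0.00288, adjusted p = 0.104), with a rho of 0.66 (permutation p = 0.0309, adjusted p = 0.300). Their r was 0.77 without the 2 tumors farthest from the median of *Hbegf*, PyMT *Pcbp1*–/– replicates 5 and 6, and 0.81 for deviations from the group means. It was 0.44 without PyMT *Pcbp1*–/– replicates 1 and 5, the tumors highest in both genes, so that it rested in part on them. *Tgfa* and *Btc* were opposed, with r = -0.77 (permutation p = 0.00655, adjusted p = 0.118) and rho = -0.67 (permutation p = 0.0273, adjusted p = 0.300). Without PyMT *Pcbp1*–/– replicates 1 and 5 that r was -0.27, so the relation rested on those tumors. *Erbb4* and its ligand *Nrg1* had r = 0.63 (permutation p = 0.0420, adjusted p = 0.499) and rho = 0.68 (permutation p = 0.0255, adjusted p = 0.300). Without PyMT *Pcbp1*+/+ replicate 2 and PyMT *Pcbp1*–/– replicate 2 their r was 0.43.

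Among 13666 other protein-coding genes, the closest in pattern were found by Pearson's r of log2 CPM over the 11 tumors, as a description without a test. For *Egfr* they were *Eapp* (r = 0.87) and *Gm11110* (0.86), for *Erbb2* *Gprc5a* (0.92) and *Nup88* (0.91), and for *Erbb3* *Traf6* (0.94) and *Snx33* (0.94). For *Erbb4* they were *Cracr2a* (0.96) and *Bcap31* (0.94), and for *Nrg1* *Aff1* (0.96) and *Hfe* (0.94). Of the remaining ligands, the closest genes were *Esrrb* (0.94) and *Masp1* (0.87) for *Areg*, *Lgals1* (0.93) and *Kansl2* (0.89) for *Tgfa*, and *Plekhg3* (0.89) and *Klf9* (0.88) for *Btc*. An r over 0.9 was found with 13 genes for *Erbb4*, 11 for *Erbb3*, 8 for *Nrg1*, 4 for *Erbb2*, 1 for *Areg*, 1 for *Tgfa* and 0 for *Egfr*, *Hbegf* and *Btc*. These are the highest of 13666 values over 11 tumors, and how many would arise by chance was not estimated. Spearman's rho was lower for some, at 0.73 for *Traf6* with *Erbb3* and 0.74 for *Lgals1* with *Tgfa*. It was higher for others, at 0.98 for *Snx33* with *Erbb3*.

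The rest of the pathway was read from lists of 77 genes, of which 75 were tested. With edgeR 2 were lower, *Rhbdf1* and *Timp3*, and 0 were higher, with 21 at an unadjusted p under 0.05, beside 18.7% of all genes, the share against which the counts of the single lists below stand too. DESeq2 called 3 lower and 4 higher, limma-voom 4 lower and 5 higher, and limma-trend 1 lower and 0 higher. These counts stand beside shares of all genes of 1.66% lower and 0.608% higher for edgeR, 3.4% and 2.31% for DESeq2, 6.19% and 5.03% for limma-voom, and 1.19% and 0.478% for limma-trend. Both genes called by edgeR belong to the release of ligands from the cell surface. Log2 fold changes were negative for 38 of the 75 and positive for 37, with a median of -0.0045 beside -0.00012 over all genes tested. The groups did not overlap for 3 of the 75 genes, *Rhbdf1*, *Nras* and *Socs4*, beside the 3.29% of all genes.

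Of the 11 genes for ligand release, *Rhbdf1* was lower in every PyMT *Pcbp1*–/– tumor than in any PyMT *Pcbp1*+/+ tumor. *Rhbdf1* (ENSMUSG00000020282.18, chr11:32209585-32222300, minus strand) encodes iRhom1, an inactive rhomboid protein that helps ADAM17 mature and reach the cell surface. It had CPM values of 80.2, 118, 59.6, 72.9 and 79.1 in PyMT *Pcbp1*+/+ replicates 1 to 5 and 34.9 to 54.5 CPM (median 45.9) in PyMT *Pcbp1*–/– tumors. The groups did not overlap, and the log2 fold change was -0.83 (SE 0.17, 95% CI -1.18 to -0.47, edgeR adjusted p = 0.0260). Among fits with a tumor left out, the call was lost without PyMT *Pcbp1*–/– replicate 1 (edgeR adjusted p = 0.0519) and without PyMT *Pcbp1*–/– replicate 4 (edgeR adjusted p = 0.0523), within a range of 0.000463 to 0.122 over 20 alternatives.

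*Timp3* (ENSMUSG00000020044.13, chr10:86300372-86349506, plus strand) encodes a matrix-bound inhibitor of metalloproteases that acts on ADAM17 too. It had CPM values of 519, 479, 283, 478 and 137 in PyMT *Pcbp1*+/+ replicates 1 to 5 and 140.3 to 203 CPM (median 179) in PyMT *Pcbp1*–/– tumors. In 4 of 5 PyMT *Pcbp1*+/+ tumors *Timp3* lay above all PyMT *Pcbp1*–/– tumors, whereas replicate 5 lay below all of them. The log2 fold change was -1.08 (SE 0.25, 95% CI -1.62 to -0.54, edgeR adjusted p = 0.0453). It was -1.28 without PyMT *Pcbp1*+/+ replicate 5 (edgeR adjusted p = 0.000963). The call was lost when any other of the 11 tumors was left out, with edgeR adjusted p-values from 0.0554 without PyMT *Pcbp1*–/– replicate 2 to 0.112 without PyMT *Pcbp1*+/+ replicate 4. Among other settings, it was lost with library size only (adjusted p = 0.0639), with no filter (adjusted p = 0.0522) and with limma-trend (adjusted p = 0.123), and kept with DESeq2 (adjusted p = 0.00219) and limma-voom (adjusted p = 0.0119), within a range of 0.000963 to 0.128 over 20 alternatives. The counts of *Timp3* were not whole in any of the 11 tumors either, so that they share the uncertainty of *Nrg1*. The same held for *Nrg4* and *Ccnd1* in 11 tumors, *Adam17* in 10, *Egf* in 7, *Etv5* in 6 and *Egr1* in 2. Of the 75 pathway genes 22 had such counts in at least 1 tumor, beside 4195 of 19232 genes. *Syn3* spans *Timp3* on the opposite strand at a mean of 12.02 CPM, with a log2 fold change of -0.55 (edgeR adjusted p = 0.205).

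*Adam17*, the main protease that releases TGFα, amphiregulin and HB-EGF, had CPM values of 50.2, 52.0, 50.7, 56.9 and 48.6 in PyMT *Pcbp1*+/+ replicates 1 to 5. PyMT *Pcbp1*–/– tumors had 56.3 to 66.4 CPM with a median of 64.1, and all 6 lay above the PyMT *Pcbp1*+/+ median. Only PyMT *Pcbp1*+/+ replicate 4 reached into their range. The log2 fold change of *Adam17* was 0.28 (SE 0.072, edgeR adjusted p = 0.0654), short of the threshold, and DESeq2 (adjusted p = 0.00363) and limma-voom (adjusted p = 0.0303) called it higher, within 0.00363 to 0.147 over 20 alternatives. Of the 11 genes for ligand release, 2 were lower and 0 higher with edgeR, 4 had an unadjusted p under 0.05, and the median log2 fold change was -0.041. DESeq2 and limma-voom each called 2 lower and 1 higher, and limma-trend 1 lower and 0 higher.

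**Figure D3:**
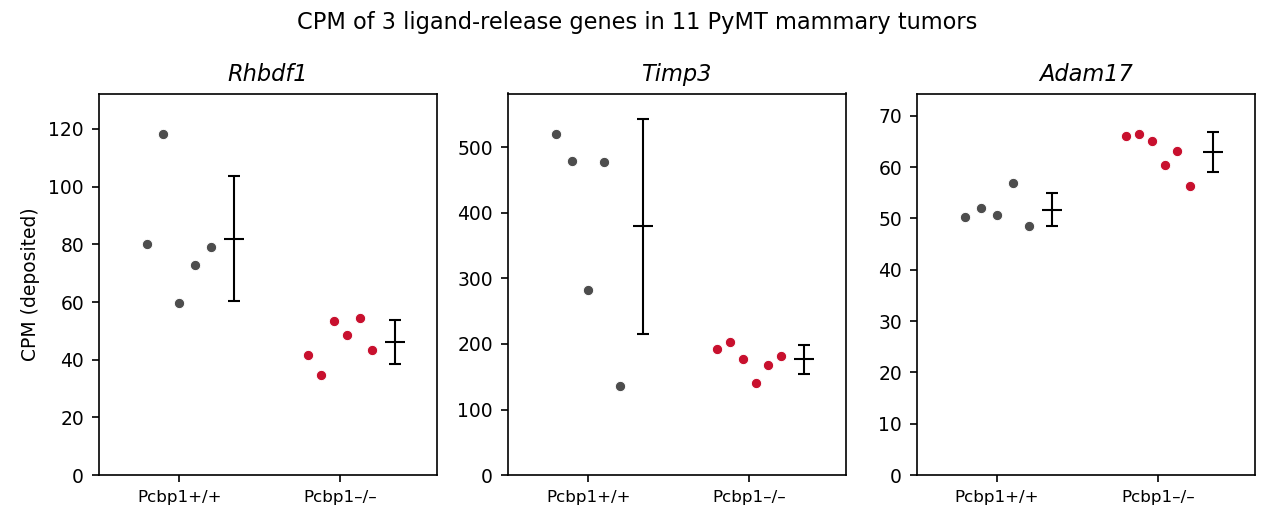
CPM (vertical axis, deposited values) of *Rhbdf1*, *Timp3* and *Adam17* in each tumor, with PyMT *Pcbp1*+/+ in grey (n = 5), PyMT *Pcbp1*–/– in red (n = 6) and bars for the mean ± SD. *Rhbdf1* shows no overlap, and for *Timp3* PyMT *Pcbp1*+/+ replicate 5 lies with the PyMT *Pcbp1*–/– tumors.

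**Figure D4:**
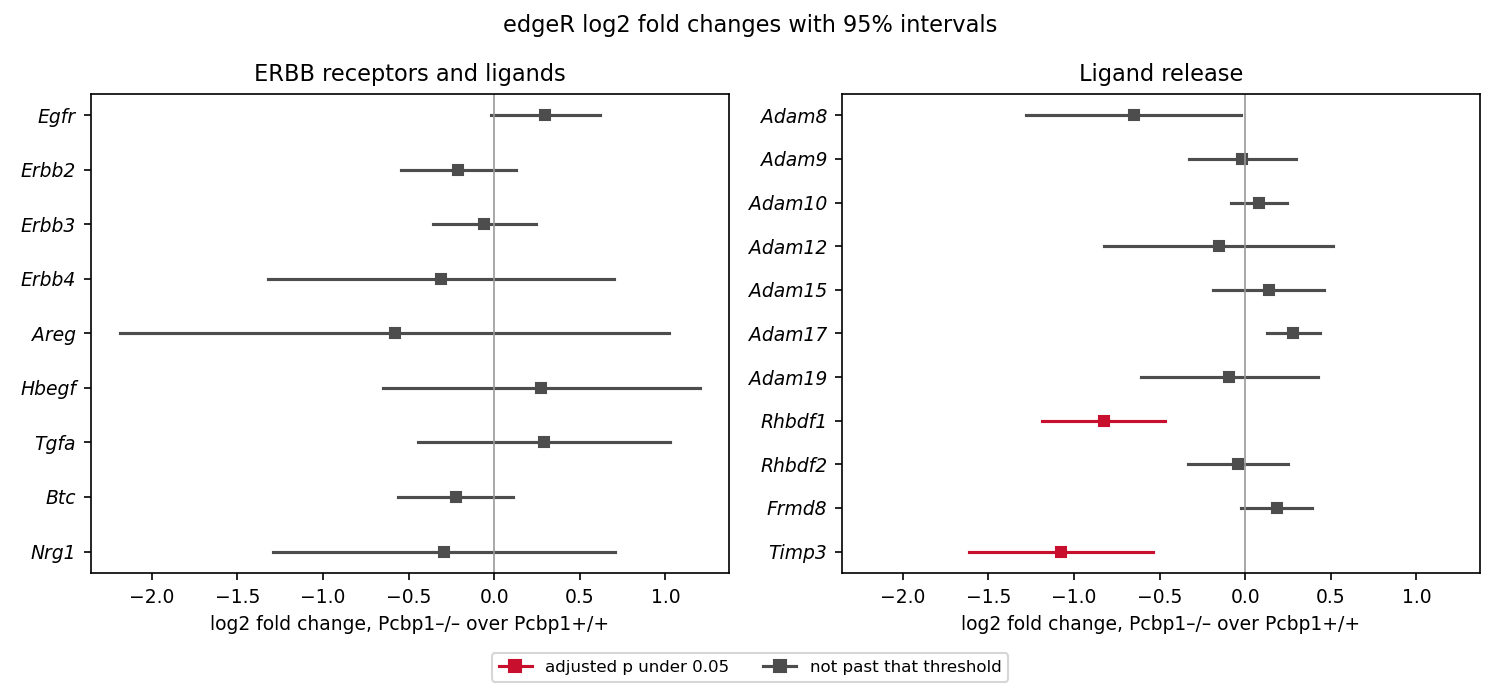
Log2 fold change of PyMT *Pcbp1*–/– (n = 6) over PyMT *Pcbp1*+/+ tumors (n = 5) from edgeR, with 95% confidence intervals as bars, for the 9 members tested and the 11 genes for ligand release. Red marks an adjusted p under 0.05, which *Rhbdf1* and *Timp3* had, and the intervals of all 9 members include 0.

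Of the other EGF-family ligands, 3 were tested and 0 passed with edgeR, DESeq2, limma-voom or limma-trend, while 1 had an unadjusted p under 0.05 in edgeR. That gene was *Nrg2*, a neuregulin that binds ERBB3 and ERBB4, at 20.6 ± 5.27 CPM in PyMT *Pcbp1*–/– tumors (SD, n = 6) against 14.4 ± 2.76 CPM in PyMT *Pcbp1*+/+ tumors (SD, n = 5). Its log2 fold change was 0.53 (SE 0.18, edgeR adjusted p = 0.145), and 5 of 6 PyMT *Pcbp1*–/– tumors lay above the PyMT *Pcbp1*+/+ median. *Egf*, the founding ligand of the family, measured 3.63 ± 0.499 and 4.52 ± 1.01 CPM in the same order (log2 fold change -0.31, edgeR adjusted p = 0.384), and limma-voom gave -0.49 (adjusted p = 0.0536). *Nrg4*, a ligand of ERBB4, measured 6.50 ± 2.42 and 5.49 ± 1.32 CPM (log2 fold change 0.25, edgeR adjusted p = 0.602). Its highest tumor was PyMT *Pcbp1*–/– replicate 2 (11.0 CPM), and the log2 fold change was 0.042 without it, 0.15 without PyMT *Pcbp1*+/+ replicate 5 and 0.032 with limma-voom. *Epgn*, which encodes epigen, measured 0.211 ± 0.211 and 0.579 ± 0.304 CPM and did not pass the filter, and *Nrg3* was not analysed here.

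Downstream of the receptors, 17 genes for adaptors, RAS, RAF, MEK and ERK were tested, and edgeR called 0 in either direction, with 4 at an unadjusted p under 0.05. DESeq2 called 1 lower and 1 higher, limma-voom 2 lower and 1 higher and limma-trend 0. *Araf*, a RAF kinase, measured 60.2 ± 8.94 CPM in PyMT *Pcbp1*–/– tumors (SD, n = 6) against 76.7 ± 6.80 CPM in PyMT *Pcbp1*+/+ tumors (SD, n = 5) (log2 fold change -0.35, SE 0.10, edgeR adjusted p = 0.0950, DESeq2 adjusted p = 0.0420, limma-voom adjusted p = 0.0205). *Nras*, a RAS GTPase, measured 107 ± 6.54 and 91.3 ± 4.99 CPM without overlap (log2 fold change 0.23, SE 0.071, edgeR adjusted p = 0.116, DESeq2 adjusted p = 0.0174, limma-voom adjusted p = 0.0311). *Gab2*, a docking adaptor, passed only with limma-voom (adjusted p = 0.0444), and its log2 fold change in edgeR was -0.32 (adjusted p = 0.267). Over 20 alternatives the adjusted p ran from 0.0205 to 0.193 for *Araf*, from 0.0174 to 0.223 for *Nras* and from 0.0444 to 0.490 for *Gab2*. Of the 17 log2 fold changes 8 were negative and 9 positive, with a median of 0.025.

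For PI3K, AKT, SRC, phospholipase C and STAT5, 12 genes were tested, and 0 passed with edgeR, DESeq2, limma-voom or limma-trend, with 1 at an unadjusted p under 0.05 in edgeR. *Pik3ca*, the catalytic subunit of PI3K most often mutated in breast cancer, measured 48.7 ± 1.96 CPM in PyMT *Pcbp1*–/– tumors (SD, n = 6) against 42.8 ± 4.36 CPM in PyMT *Pcbp1*+/+ tumors (SD, n = 5) (log2 fold change 0.19, edgeR adjusted p = 0.190). The 12 genes divided into 6 with a negative and 6 with a positive log2 fold change, with a median of 0.015.

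Among 19 inhibitors and regulators of receptor turnover, edgeR called 0 and 5 had an unadjusted p under 0.05. DESeq2 and limma-voom each called 0 lower and 1 higher, *Socs4*, and limma-trend called 0. *Socs4*, which marks EGFR for degradation, measured 79.9 ± 3.87 CPM in PyMT *Pcbp1*–/– tumors (SD, n = 6) against 67.9 ± 6.32 CPM in PyMT *Pcbp1*+/+ tumors (SD, n = 5). The groups did not overlap for *Socs4* (log2 fold change 0.24, SE 0.069, edgeR adjusted p = 0.0944, DESeq2 adjusted p = 0.0102, limma-voom adjusted p = 0.0228, range over 20 alternatives 0.0102 to 0.230). *Lrig3*, a transmembrane protein of the LRIG family, measured 18.4 to 21.2 CPM in PyMT *Pcbp1*–/– and 15.9 to 18.5 CPM in PyMT *Pcbp1*+/+ tumors (log2 fold change 0.22, edgeR adjusted p = 0.128). The median log2 fold change of the 19 was 0.045.

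Genes induced by ERK signalling were read as the last list of the pathway. Whether ERBB receptors drove them in these tumors, which all carry the middle T oncogene, was not tested. Of 13 tested, edgeR called 0, DESeq2 1 higher, limma-voom 2 higher and limma-trend 0, and 6 had an unadjusted p under 0.05 in edgeR. *Etv5*, an ETS transcription factor, measured 217 ± 70.4 CPM in PyMT *Pcbp1*–/– tumors (SD, n = 6) against 129 ± 32.7 CPM in PyMT *Pcbp1*+/+ tumors (SD, n = 5) (log2 fold change 0.73, SE 0.23, edgeR adjusted p = 0.115, DESeq2 adjusted p = 0.0390, limma-voom adjusted p = 0.0278). *Ier3*, an immediate early gene, measured 43.2 ± 9.52 and 66.5 ± 21.5 CPM, with all 6 PyMT *Pcbp1*–/– tumors below the PyMT *Pcbp1*+/+ median (log2 fold change -0.61, SE 0.20, edgeR adjusted p = 0.127). *Ccnd1*, which encodes cyclin D1, measured 506 ± 107.5 and 335 ± 126 CPM (log2 fold change 0.60, edgeR adjusted p = 0.155, limma-voom adjusted p = 0.0161). Without PyMT *Pcbp1*+/+ replicate 2 its log2 fold change was 0.84 and passed (edgeR adjusted p = 0.0252). Over 20 alternatives the adjusted p of *Ccnd1* ran from 0.0161 to 0.263 and that of *Etv5* from 0.0278 to 0.228. *Dusp5*, an ERK phosphatase, measured 22.3 ± 3.21 and 32.2 ± 9.48 CPM (log2 fold change -0.54, SE 0.19, edgeR adjusted p = 0.152), and its log2 fold change was -0.33 without PyMT *Pcbp1*+/+ replicate 5. *Fosl1*, a FOS-family transcription factor, measured 0.713 ± 0.292 and 1.41 ± 0.554 CPM (log2 fold change -0.93, or -0.48 with limma-trend, SE 0.33 and adjusted p = 0.159 with edgeR), and for both genes all 6 PyMT *Pcbp1*–/– tumors lay below the PyMT *Pcbp1*+/+ median. *Egr1*, an immediate early transcription factor, measured 85.3 ± 15.3 and 145 ± 91.5 CPM (log2 fold change -0.74, SE 0.31, edgeR adjusted p = 0.228). Its log2 fold change was -0.38 without PyMT *Pcbp1*+/+ replicate 2 (edgeR adjusted p = 0.430) and -0.20 with limma-voom (adjusted p = 0.617). Of the 6 genes with an unadjusted p under 0.05, 4 thus had a negative log2 fold change, *Ier3*, *Dusp5*, *Fosl1* and *Egr1*, and 2 a positive one, *Etv5* and *Ccnd1*. The genes of the whole list stood on both sides, with 7 negative and 6 positive log2 fold changes and a median of -0.19.

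Because the tumors hold several cell types, lists of marker genes were read beside these results, and edgeR called 0 genes in each list. Luminal epithelial markers summed to between 2464 and 3618 CPM (median 3329) in PyMT *Pcbp1*–/– and to between 2526 and 5535 CPM (median 4373) in PyMT *Pcbp1*+/+ tumors, with *Csn3*, a milk casein, the most abundant at 215 to 2085 CPM. In 4 of 5 PyMT *Pcbp1*+/+ tumors the luminal sum lay above that of every PyMT *Pcbp1*–/– tumor, and the groups overlapped only through PyMT *Pcbp1*+/+ replicate 2 (2526 CPM). *Csn3* alone averaged 609 CPM in PyMT *Pcbp1*–/– and 1422 CPM in PyMT *Pcbp1*+/+ tumors. The luminal sums averaged 3263 and 4217 CPM in that order, so most of their difference lay in this gene. Log2 fold changes were negative for 10 of the 16 luminal genes (median -0.069), 2 had an unadjusted p under 0.05 in edgeR, and limma-voom called 1, *Csn3*, lower, as did edgeR without PyMT *Pcbp1*+/+ replicate 2. That median ran from -0.14 without PyMT *Pcbp1*–/– replicate 5 to 0.020 without PyMT *Pcbp1*–/– replicate 1, and was 0.0072 without PyMT *Pcbp1*+/+ replicate 1. Basal and myoepithelial markers summed to between 173 and 664 CPM and to between 146 and 1246 CPM, with *Mylk*, a myosin kinase, at 27.5 to 330.4 CPM. In that list 5 of 9 genes had a negative log2 fold change (median -0.040) and 1 an unadjusted p under 0.05. That gene was *Krt14* (log2 fold change -2.42, edgeR adjusted p = 0.160), high in PyMT *Pcbp1*+/+ replicate 2 (277 CPM, next 47.6). Without that tumor 0 genes of the list had such a p. Without PyMT *Pcbp1*+/+ replicate 1, the highest of all for the summed basal markers, 7 of 9 genes were positive (median 0.53). Without PyMT *Pcbp1*–/– replicate 2 the median was 0.086, and it was lowest without PyMT *Pcbp1*+/+ replicate 5, at -0.22. Markers of both epithelial layers were thus measured in all 11 tumors.

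Of the stromal lists, fibroblast markers had a positive log2 fold change in 8 of 9 genes (median 0.32, with 1 at an unadjusted p under 0.05). The median was 0.15 without PyMT *Pcbp1*–/– replicate 6, with 7 of 9 positive, and 0.17 without PyMT *Pcbp1*+/+ replicate 1. These markers summed to between 413 and 1030 CPM in PyMT *Pcbp1*–/– and to between 414 and 762 CPM in PyMT *Pcbp1*+/+ tumors, with *Col1a1* at 107 to 235 CPM. Adipocyte markers had a negative log2 fold change in all 7 genes tested (median -0.80, with 0 at an unadjusted p under 0.05), and limma-voom called 1, *Plin4*, lower. Their sums ran from 7.83 to 74.1 CPM and from 13.2 to 149 CPM, with *Plin4*, a lipid droplet protein, at 5.69 to 49.4 CPM. The direction rested on PyMT *Pcbp1*+/+ replicate 3 (149 CPM), since the other 4 tumors of its group had 13.2 to 38.6 CPM, and without it 1 of 7 genes was negative and 6 were positive (median 0.48). The median of 6 genes tested was -1.49 without PyMT *Pcbp1*–/– replicate 1. Endothelial markers had a negative log2 fold change in all 9 genes (median -0.20, with 0 at an unadjusted p under 0.05), summing to between 66.6 and 119.7 CPM and to between 65.5 and 119.0 CPM, with *Cdh5*, a cadherin of vessels, at 12.9 to 35.1 CPM. Leaving out PyMT *Pcbp1*+/+ replicate 4 gave 6 negative and 3 positive genes (median -0.17), and the median was -0.12 without PyMT *Pcbp1*+/+ replicate 2 and -0.13 without PyMT *Pcbp1*–/– replicate 3. Sums of all these lists overlapped between the groups. Skeletal muscle markers ran from 1.25 to 22.8 CPM and from 0.569 to 29.5 CPM, with *Acta1* at 0.474 to 12.1 CPM, and 1 of 8 was tested (log2 fold change 0.55, edgeR adjusted p = 0.782, and 0.031 to 2.28 with a tumor left out). Schwann cell and nerve markers summed to between 410.0 and 673 CPM and to between 322 and 499.7 CPM, with *Sox10*, which epithelial tumor cells can express too, at 238 to 559 CPM. Of their 5 genes tested, 3 had a negative log2 fold change (median -0.092, or from -0.15 without PyMT *Pcbp1*–/– replicate 5 to 0.00048 without PyMT *Pcbp1*–/– replicate 1) and 1 had an unadjusted p under 0.05.

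Of the immune lists, macrophage markers had a positive log2 fold change in all 9 genes (median 0.25, with 1 at an unadjusted p under 0.05). All 9 were positive whichever tumor was left out, and the median was 0.13 without PyMT *Pcbp1*+/+ replicate 5 and 0.15 without PyMT *Pcbp1*–/– replicate 1, and 0.39 without PyMT *Pcbp1*+/+ replicate 3. They summed to between 184 and 376 CPM in PyMT *Pcbp1*–/– and to between 133 and 299 CPM in PyMT *Pcbp1*+/+ tumors, with *C1qb*, a complement component, at 37.4 to 103 CPM. T cell markers were low, at 4.75 to 9.01 CPM and 4.35 to 10.3 CPM in sum, with *Cd8a* at 1.05 to 4.66 CPM, and of the 4 genes tested 2 had a negative log2 fold change (median -0.00039, or -0.14 to 0.10 with a tumor left out, and 0 at an unadjusted p under 0.05). B cell markers were lower still, with sums of 0.534 to 2.09 CPM and 0.714 to 2.02 CPM, *Pax5* at 0.219 to 1.84 CPM and 0 genes tested by edgeR, and *Ms4a1* and *Cd79a* were not analysed here. DESeq2 and limma-trend called 0 genes of the epithelial, stromal, immune, muscle and nerve lists, and limma-voom called 0 of the basal, fibroblast, endothelial, macrophage, T cell and skeletal muscle lists.

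Genes of dividing cells had a positive log2 fold change in 15 of 15 (median 0.42). Of the 15, 12 were positive and 3 negative without PyMT *Pcbp1*+/+ replicate 1 (median 0.27), and 1 was negative without PyMT *Pcbp1*–/– replicate 4, PyMT *Pcbp1*–/– replicate 5 or PyMT *Pcbp1*+/+ replicate 4. With edgeR 0 passed, the lowest adjusted p was 0.0510, and 8 had an unadjusted p under 0.05. DESeq2 called 6 higher, limma-voom 9 and limma-trend 1, beside 2.31%, 5.03% and 0.478% of all genes called higher, and 18.7% of all genes had an unadjusted p under 0.05 in edgeR. EdgeR called 3 higher without PyMT *Pcbp1*–/– replicate 1 (*Cdk1*, *Mki67* and *Pcna*), 3 without PyMT *Pcbp1*+/+ replicate 2 (*Cdk1*, *Mcm3* and *Pcna*) and 1, *Mcm3*, without PyMT *Pcbp1*–/– replicate 6. Their sums were 534 to 811 CPM (median 766) in PyMT *Pcbp1*–/– and 392 to 633 CPM (median 537) in PyMT *Pcbp1*+/+ tumors, with *Mki67*, the proliferation marker, at 246 to 511 CPM. The part of dividing cells and of the other cell types in the levels of the receptors, the ligands, *Rhbdf1* and *Timp3* was not tested.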

How the data were processed

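RNA of 11 tumors was grouped by the genotype in the labels, and age and strain come from the study's methods. The authors deposited estimated counts per gene, which need not be whole, and CPM, each estimated count divided by the total of its tumor. Bowtie2, FastQC, Partek and the build GRCm38 come from the submitters' processing notes. The annotation version, the counting method and the use of strand in counting are not given in the sources used here. Deposited stop positions lie 1 base past the end of a gene, so ends were taken 1 base earlier.

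Estimated counts were rounded to whole numbers and tested with edgeR 4.0.16 (R 4.3.3, filterByExpr, TMM factors, quasi-likelihood F test, a term for genotype alone), and p-values were adjusted by Benjamini-Hochberg over 19232 genes. The test used in the study, Gene Specific Analysis in Partek, was not used here. The F statistic and the log2 fold change gave the SEs. Correlations used 100000 permutations. Intervals have 95% confidence, and the floor of 3 counts covers counting error only. The edgeR, DESeq2 and limma-voom fits were tried on counts simulated with the dispersions that edgeR estimated here. Limma-trend, the correlations, the levels per kilobase and the marker sums were not tried in this way.

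Alternatives were DESeq2 1.42.0, limma 3.58.1 (voom with sample quality weights, or trend on log2(CPM + 1)), library size only, upper-quartile factors, no filter, at least 1 CPM in at least 5 tumors, protein-coding genes only, the replicate number as a block and each tumor left out in turn. Exon lengths, and nothing else, came from GENCODE vM39 (GRCm39), matched by Ensembl identifier for 98.5% of genes tested.

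Named genes were, by a rule, the 10 members, *Pcbp1*, pathway genes past the threshold, the 2 genes with the lowest p of each pathway list, the other EGF-family ligands, the most abundant gene of each marker list and the 2 closest genes of each member. Some genes that this rule gives are not reported here. *Adam17*, *Gab2*, *Ccnd1*, *Dusp5*, *Fosl1*, *Egr1*, *Krt14*, *Cdk1*, *Pcna* and *Mcm3* were named after their values were seen. Genes that overlap a named gene were found by position, and the 7 within *Erbb4* were counted only. The members and lists were chosen with earlier results of these data known.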

Additional observations from a re-analysis of the deposited data

Results flagged for a closer look

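In 88 groups of values, the CPM of a gene or of a marker list in the tumors of a genotype, 14 had a highest or lowest tumor whose gap to the nearest other, divided by the range of the group, was above Dixon's 95% value. Chance gives about 1 in 20, or 4.4, if values are independent and normally distributed, whereas CPM values are skewed and several of these genes and sums are related. Among the members, *Egfr* was high in PyMT *Pcbp1*+/+ replicate 4 (188 CPM, next 132). *Areg* was high in PyMT *Pcbp1*+/+ replicate 1 (7.67 CPM, next 0.964). *Ereg* was high in PyMT *Pcbp1*–/– replicate 1 (1.54 CPM, next 0.426) and in PyMT *Pcbp1*+/+ replicate 1 (1.37 CPM, next 0.285). *Nrg1* was high in PyMT *Pcbp1*–/– replicate 2 (25.0 CPM, next 13.9). *Egf* was low in PyMT *Pcbp1*+/+ replicate 2 (2.75 CPM, next 4.74), and *Etv5* was high in PyMT *Pcbp1*–/– replicate 1 (349.7 CPM, next 217).

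Summed markers stood apart in further tumors. PyMT *Pcbp1*–/– replicate 1 was low for luminal epithelial markers (2464 CPM, next 3317) and for dividing cells (534 CPM, next 718). PyMT *Pcbp1*+/+ replicate 1, the tumor high in *Areg* and *Ereg*, was high for basal and myoepithelial markers (1246 CPM, next 455). Adipocyte markers were high in PyMT *Pcbp1*+/+ replicate 3 (149 CPM, next 38.6), B cell markers in PyMT *Pcbp1*–/– replicate 6 (2.09 CPM, next 1.03) and skeletal muscle markers in PyMT *Pcbp1*+/+ replicate 5 (29.5 CPM, next 2.01). Schwann cell and nerve markers were high in PyMT *Pcbp1*–/– replicate 2 (673 CPM, next 499), the tumor highest in *Erbb4*.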

How the results depend on the processing

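Members past the threshold numbered 0 in both directions under all 20 alternatives run. Of 180 log2 fold changes of the 9 tested members, 173 kept their sign and 7 reversed it, none past the threshold. The reversed values were 0.038 for *Erbb3* and 0.061 for *Nrg1*, both without PyMT *Pcbp1*+/+ replicate 4, 0.87 for *Areg* without PyMT *Pcbp1*+/+ replicate 1, -0.050 for *Hbegf* without PyMT *Pcbp1*–/– replicate 5, with limma-voom 0.14 for *Areg* and -0.057 for *Hbegf*, and 0.019 for *Areg* with the replicate block. With tumors left out in turn, log2 fold changes ran from -0.18 to 0.038 for *Erbb3*, from -0.86 to 0.87 for *Areg*, from -0.050 to 0.44 for *Hbegf* and from -0.56 to 0.061 for *Nrg1*. For 19 pathway genes, 350 of 380 values stayed on their side of the threshold, 17 lost the call, 13 gained it and 0 reversed. *Pcbp1* passed in 20 of 20, with log2 fold changes from -3.60 to -3.34.

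Over all genes, 319 were lower and 117 higher. DESeq2 gave 700 and 476, and limma-voom 1190 and 968. Leaving out a tumor gave 144 to 389 lower and 41 to 187 higher genes. Medians of the marker lists with each tumor left out were chosen after seeing the data. The causes were not tested, except that a fit without a tumor holds fewer tumors.

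The fit with the replicate number as a replicate block used 10 tumors and gave 118 lower and 42 higher genes, *Areg* at 0.019 as above, *Rhbdf1* at -0.80 (edgeR adjusted p = 0.122) and *Timp3* at -0.99 (edgeR adjusted p = 0.128), so that both calls were lost. Tumors with the same number had correlations of 0.13, 0.087, -0.079, -0.14 and 0.29 in their deviations, and only numbers 1 and 5 matched best with their own, so the numbers were not taken to pair tumors.

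Depth limits *Ereg*, *Epgn* and those B cell and T cell markers that had too few counts to be tested. The counts of *Nrg1*, *Timp3*, *Nrg4*, *Ccnd1*, *Adam17*, *Egf*, *Etv5* and *Egr1* were not whole in some or all tumors, so how their reads were divided is uncertain, and genes on the opposite strand overlap *Egfr*, *Tgfa*, *Nrg1*, *Timp3* and *Pcbp1*. Exon lengths come from a later annotation, so levels per kilobase are approximate. With 6 and 5 tumors, the intervals of *Areg*, *Erbb4*, *Nrg1* and *Hbegf* remain wide.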
